A study of Mus with 15 samples.

Results

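Fat grafts taken at day 7 were set against fat grafts taken at day 3, with 5 samples at each time, which are 10 of the 15 samples of the series. The comparison was fitted on these 10 samples alone and covered the 15306 of 55471 genes that had at least 10 counts in 5 or more of them. All 15 samples are adipose tissue of wild-type C57BL/6 mice aged 7 weeks, and the 3 groups of 5 are control tissue, 3 day grafts and 7 day grafts. No transgene, deletion or drug is named for any group, so the 2 graft groups differ by time only as far as the labels say. The labels do not say which depot was grafted, where it was placed, whether donor and host differed, or whether the 5 samples of a group came from separate animals. The p-values therefore weigh the change between the days against the spread among these samples, which may be technical.

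A piece of transferred fat is cut off from its blood supply until host vessels reach it. Many of its adipocytes die in the first days, their lipid is taken up by macrophages that enter from the host, and stromal cells spread and lay down new matrix. In healing tissue, myofibroblasts are the contractile, collagen-producing stromal cells that take over as the first inflammatory wave subsides. Early inflammation involves chemokines that draw in monocytes and neutrophils, and interferon-stimulated genes are switched on by nucleic acids and by interferon itself.

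Total counts per graft were 23736037 to 29366860 at day 3 and 20192200 to 31997959 at day 7, and values below are counts per TMM-scaled library in the usual CPM unit. Mitochondrial genes took 2.35 to 4.02% of the counts at day 3 and 2.17 to 2.89% at day 7. On the first principal component, which held 43.1% of the variance, day 7 grafts 1 to 4 scored 30.66 to 38.17 and day 3 grafts 2 to 5 scored -35.21 to -24.01. Day 3 graft 1 (-8.298) and day 7 graft 5 (-7.353) lay between these sets and close to each other. Results are therefore given with and without these 2 libraries where it matters.

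**Figure D1:**
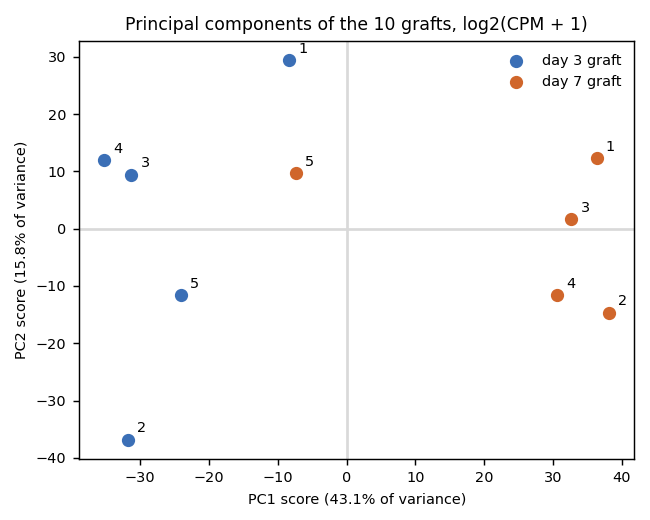
Scores of the 10 grafts on the first and second principal components of log2(CPM + 1) over the tested genes; numbers are graft numbers and colour gives the day. Day 7 graft 5 lies at -7.353 on the first component, near day 3 graft 1 at -8.298, while the other 4 day 7 grafts lie at 30.66 to 38.17.

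Day 7 graft 5 also stood apart in mesothelial genes and in Lyve1 and F13a1. Msln, a surface protein of the mesothelium that lines body cavities, was 15.6 CPM in it against 0.0953 to 2.12 CPM in the other day 7 grafts, and the mean log2(CPM + 1) of 9 mesothelial genes was 3.28 there, against 0.20 to 1.52 in the other day 7 grafts and 0.38 to 0.84 at day 3. Lyve1, found on tissue-resident macrophages and lymphatic vessels, was 406 CPM against 15.99 to 27.3 CPM in the other day 7 grafts, and F13a1 was 2322 CPM against 461 to 664 CPM. In day 3 graft 1 the skeletal muscle genes stood out. Acta1, skeletal actin, was 104 CPM there and 0.696 to 1.51 CPM in the other day 3 grafts, and Mylpf, a fast myosin light chain, was 67.1 CPM against 0.601 to 1.62 CPM. Muscle transcripts were also seen in day 7 grafts 1 and 3 (31.7 and 63.5 CPM of Acta1), while Acta1 was 0.114 to 4.48 CPM in the other 3 day 7 grafts. Control tissue held 3.77 to 546 CPM of Acta1.

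At an adjusted p under 0.05 (limma, Benjamini-Hochberg over all tested genes), 749 genes rose from day 3 to day 7 (4.89% of those tested) and 646 fell (4.22%), together 9.11%. These shares are the background for the list counts below. At least 2-fold, 396 rose and 257 fell. The split of calls depended on the scaling: with upper-quartile scaling 952 genes rose and 531 fell, and on TPM 792 rose and 341 fell. The 5 values of one day did not overlap the 5 of the other for 1242 genes (8.11%), and 938 genes were both called and without overlap. The median log2 fold change of all tested genes was 0.00. Without day 7 graft 5, 1583 of 15169 genes rose (10.4%) and 1269 fell (8.37%). Those shares are the background for every list count given below without that graft. Without day 3 graft 1 the counts were 771 and 759. Leaving out any one of day 3 grafts 3, 4 and 5 or day 7 grafts 1 to 4 lowered them to 256 to 383 genes up and 218 to 304 genes down. Of the 89 called genes that are given with a standard error or ranked by fold here, 44 kept their call whichever single graft was left out; for the others the grafts whose omission ended the call are given with the gene. Of these omissions, the fits without day 7 graft 3 gave the lowest counts of all, 256 up and 218 down.

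**Figure D2:**
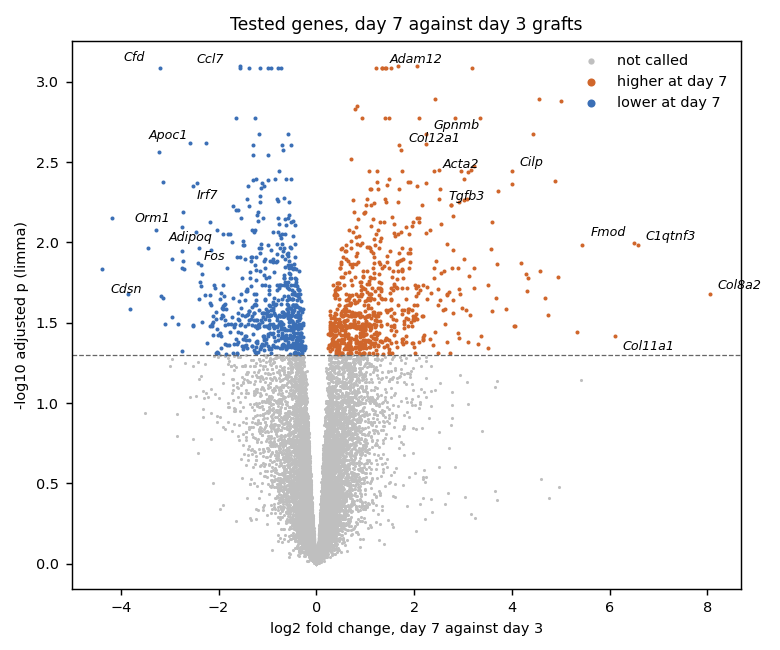
Each point is 1 of the 15306 tested genes, with its log2 fold change (day 7 against day 3) on the horizontal axis and -log10 of the limma adjusted p on the vertical axis; the dashed line is an adjusted p of 0.05. Of the labelled genes Col8a2 (8.06), C1qtnf3 (6.58) and Fmod (6.49) lie furthest to the right, and the adipocyte gene Cfd (-3.20) is the most strongly lowered of the labelled genes.

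The adipocyte programme was lower at day 7. Of 18 adipocyte markers, 11 fell and none rose, with a median log2 fold change of -1.59 against 0.00 over all genes. Cfd, the secreted protease adipsin (chromosome 10, 79890853 to 79892655 in mm10), stood at 466, 1503, 1105, 920 and 1227 CPM in day 3 grafts 1 to 5 and at 62.7, 95.6, 112, 147 and 131 CPM in day 7 grafts 1 to 5. Every day 7 graft was below every day 3 graft, and the log2 fold change was -3.20 ± 0.31 (SE, limma adjusted p = 0.00082). Control adipose tissue held 5823 to 16960 CPM.

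Adipoq, which encodes the hormone adiponectin, was 153, 397, 363, 243 and 439 CPM at day 3 and 57.8, 131, 76.4, 108 and 80.7 CPM at day 7 (log2 fold change -1.77 ± 0.30, adjusted p = 0.00884). Day 3 graft 1 was the lowest of its group for both genes, yet still above all day 7 grafts. Retn, the adipokine resistin, fell by 2.18 ± 0.35 (adjusted p = 0.0075), and Pparg, the nuclear receptor that holds the fat cell state, fell by 1.31 ± 0.24 (adjusted p = 0.0123). The other 7 members that fell were the lipid droplet genes Plin1, Plin4, Cidec and Cidea, the lipases Lipe and Pnpla2, and the transcription factor Cebpa. Lep, Fabp4, Lpl, Aqp7, Adrb3, Slc2a4 and Car3 were not called, with log2 fold changes of -2.69 to -0.58. Slc2a4, the insulin-responsive glucose transporter, was 4.10 to 13.03 CPM at day 3 and 1.90 to 5.86 CPM at day 7 (-1.04 ± 0.42, adjusted p = 0.14), against 114 to 316 CPM in control tissue. The mean log2(CPM + 1) of the 18 markers was 5.94 to 7.54 at day 3, 4.78 to 5.72 at day 7 and 9.04 to 10.73 in controls, so the markers of the labelled tissue were present in all grafts but lower than in controls. In bulk tissue, fewer cells of a type and less RNA per cell cannot be told apart. The number of adipocyte markers called lower was 11 without day 7 graft 5 and 13 without day 3 graft 1, and it was 5 to 10 in the other fits that left out 1 graft.

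Lipid synthesis genes moved the same way. In the list of fatty acid and triglyceride synthesis 6 of 15 genes fell and none rose (median -0.50). Dgat2, which adds the last fatty acid of a triglyceride, was 24.5 to 76.9 CPM at day 3 and 8.55 to 19.2 CPM at day 7, with no overlap (-1.47 ± 0.32, adjusted p = 0.0229). Of 18 fatty acid oxidation genes 4 fell, among them Acsl1, which activates fatty acids (-1.02 ± 0.26, adjusted p = 0.0333), and Etfa, which passes electrons from oxidation to the respiratory chain (-0.71 ± 0.13, adjusted p = 0.0121). In the citric acid cycle and pyruvate dehydrogenase list 3 of 19 fell, led by the pyruvate carboxylase gene Pcx (-1.27 ± 0.29, adjusted p = 0.0274). Respiratory chain genes showed 1 call lower of 19 in the nucleus and 1 of 13 in the mitochondrial genome, the latter mt-Co2 (-0.58 ± 0.16, adjusted p = 0.0448), whose reads can also match nuclear copies. With 4.22% of all genes called lower, 1 of 19 and 1 of 13 are close to the background. The calls on Acsl1 and Pcx ended without any one of day 3 grafts 3 and 5 and day 7 grafts 1 to 4, that on Dgat2 without day 3 graft 3 or day 7 graft 2 or 3, and that on mt-Co2 without any graft other than day 3 grafts 1 and 4 and day 7 graft 5. In the fits without day 7 graft 5 or day 3 graft 1, 8 genes of the synthesis list fell, and without any other single graft 2 to 6. With library totals or upper-quartile scaling, or on TPM, 3 of them were called lower. In fits without 1 graft, 1 to 5 oxidation genes and 0 to 3 genes of the citric acid cycle list fell, and with library totals or on TPM 1 oxidation gene did.

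Genes of cholesterol handling split in direction. Apoc1, a small lipoprotein component, was 20.9, 46.8, 43.8, 36.9 and 43.5 CPM at day 3 and 6.34, 8.93, 5.98, 6.91 and 11.9 CPM at day 7 (-2.26 ± 0.28, adjusted p = 0.0024). Apoe, the neighbouring lipoprotein gene made in quantity by macrophages, was 757 to 1156 CPM at day 3 and 1184 to 3144 CPM at day 7 (0.90 ± 0.23, adjusted p = 0.034). The days did not overlap for either gene, in opposite directions. Nr1h3, the sterol-sensing receptor LXR alpha, fell by 0.66 ± 0.13 (adjusted p = 0.0166), while Mylip, its target that degrades the LDL receptor, rose by 0.49 ± 0.12 (adjusted p = 0.0333). In total 2 of 8 genes of cholesterol efflux rose and 3 fell, and 2 of 16 genes of cholesterol synthesis and uptake rose, among them Dhcr7. The call on Apoe ended without day 3 grafts 2, 3, 4 or 5 or day 7 grafts 2, 3 or 4, and that on Mylip without any graft other than day 3 graft 1 and day 7 graft 5.

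The contractile programme of myofibroblasts and smooth muscle rose. Of 14 genes, 12 rose and none fell, with a median log2 fold change of 2.13. Acta2, smooth muscle actin (chromosome 19, 34241090 to 34255590), was 110, 59.8, 95.7, 99.0 and 70.2 CPM at day 3 and 655, 517, 615, 524 and 172 CPM at day 7. All day 7 grafts exceeded all day 3 grafts, with day 7 graft 5 far below the other 4, and the log2 fold change was 2.41 ± 0.33 (adjusted p = 0.00361). In control tissue Acta2 was 29.2 to 57.0 CPM.

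Actg2, the enteric smooth muscle actin, was 0.301 to 1.10 CPM at day 3 and 16.5, 18.1, 11.3, 8.34 and 1.74 CPM at day 7 (4.04 ± 1.01, adjusted p = 0.0333). Myh11, the smooth muscle myosin heavy chain, was 1.08 to 5.93 CPM at day 3 and 17.9 to 27.8 CPM in day 7 grafts 1 to 4. It was 3.90 CPM in day 7 graft 5, so the groups overlapped (2.89 ± 0.74, adjusted p = 0.0368). In control tissue Myh11 was 19.5 to 35.3 CPM and Actg2 0.357 to 2.51 CPM. The rest of the risen members were Tagln, Cnn1, Lmod1, Cald1, Tpm1, Tpm2 and Myl9, which belong to the contractile apparatus, and Lrrc15 and Fap, surface proteins of activated fibroblasts. Des and Cthrc1 were not called (1.26 and 0.33). When day 7 graft 5 was left out, all but 1 of the 13 genes that could be tested rose, and without day 3 graft 1 the count was 10 of 14. Without any other single graft it was 4 to 9. The calls on Actg2 and Myh11 ended without any one of day 3 grafts 3, 4 and 5 and day 7 grafts 1 to 4, for Actg2 also without day 3 graft 2 and for Myh11 also without day 3 graft 1.

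**Figure D3:**
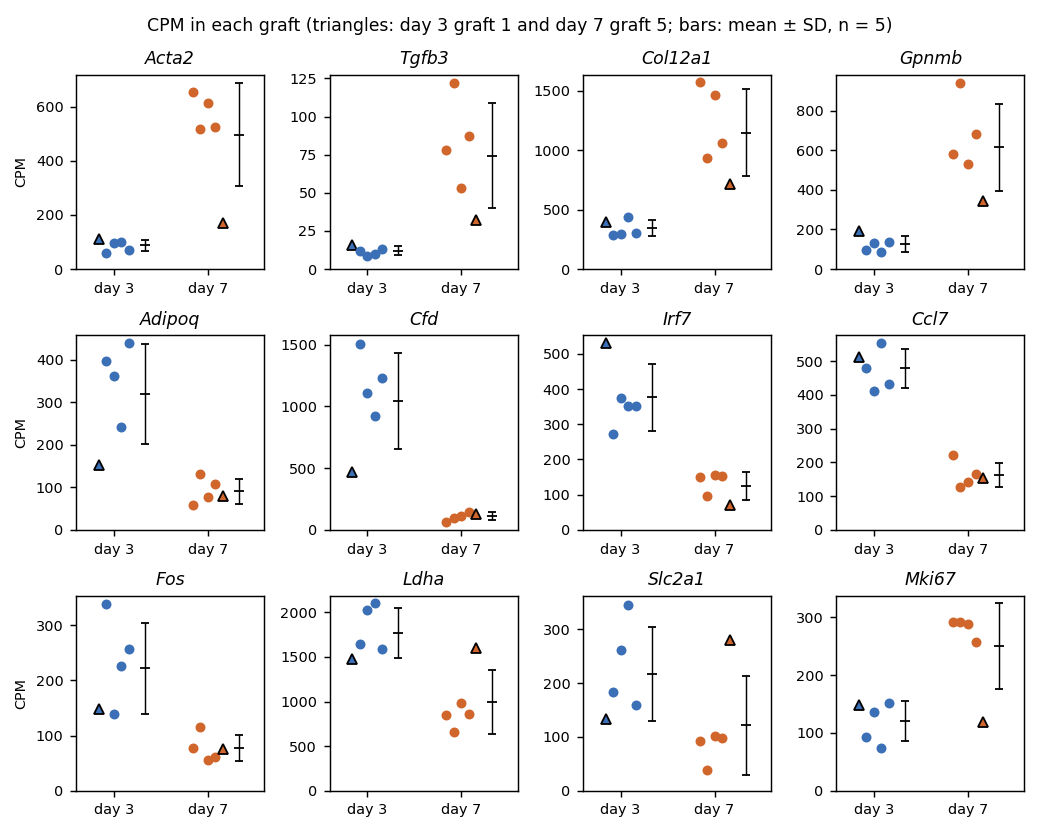
CPM of 12 genes in each graft at day 3 (blue) and day 7 (orange), with the mean and SD of each group of 5; triangles are day 3 graft 1 and day 7 graft 5. Acta2, Tgfb3, Col12a1 and Gpnmb are higher in all 5 day 7 grafts and Adipoq, Cfd, Irf7, Ccl7 and Fos lower, whereas Ldha, Slc2a1 and Mki67 in day 7 graft 5 lie within the day 3 range.

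Pericyte genes were mostly not called, with 2 of 9 higher (median -0.01). These were Pdgfrb, the receptor that recruits mural cells (48.0 to 122 CPM at day 3, 112 to 348 CPM at day 7, log2 fold change 1.64 ± 0.31, adjusted p = 0.0137), and Notch3, a receptor of vascular smooth muscle (1.95 ± 0.52, adjusted p = 0.0425). The call on Notch3 ended without any graft other than day 3 graft 2 and day 7 graft 5. In the TGF-beta and activin list 2 of 15 genes rose, both ligands, where 4.89% of all tested genes rose. Tgfb3 was 16.1, 11.9, 8.68, 10.2 and 13.1 CPM at day 3 and 78.0, 122, 53.1, 87.2 and 31.98 CPM at day 7 (2.53 ± 0.36, adjusted p = 0.00463). Tgfb2 was 5.76 to 8.76 CPM at day 3 and 16.4 to 20.04 CPM at day 7 (1.35 ± 0.14, adjusted p = 0.00082). The groups were separate for both ligands, while Tgfb1 was 48.0 to 71.0 CPM at day 3 and 44.2 to 48.1 CPM at day 7 (-0.35 ± 0.10, adjusted p = 0.0584) and was not called. Of 12 Wnt genes, the secreted inhibitors Sfrp1 (3.02 ± 0.45, adjusted p = 0.00542) and Dkk3 (2.75 ± 0.42, adjusted p = 0.00581) rose, and the ligand Wnt11 fell (-1.22).

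Several collagen genes rose as well, while Col1a1 and Col3a1, which encode the main chains of types I and III, were not called. Of 16 fibrillar and associated collagens and their chaperones, 7 rose and none fell, and all 16 had a positive log2 fold change or 0.00 (median 0.56). Col12a1, a collagen that links fibrils (chromosome 9, 79598991 to 79718831), was 392, 288, 298, 439 and 304 CPM at day 3 and 1570, 930, 1465, 1059 and 712 CPM at day 7 (1.70 ± 0.21, adjusted p = 0.00248). Col6a1, a chain of the beaded collagen around cells, was 474 to 752 CPM at day 3 and 1036 to 1818 CPM at day 7 (1.27 ± 0.18, adjusted p = 0.00463). Both genes were separate between the days. The other 5 were Col1a2, Col5a1, Col5a2, Col6a2 and Col6a3, with log2 fold changes of 0.60 to 1.18. Col1a1 (2832 to 5452 CPM at day 3, 5010 to 6768 CPM at day 7, log2 fold change 0.53 ± 0.17, adjusted p = 0.0799) and Col3a1 (8870 to 20030 CPM and 18610 to 21980 CPM, 0.34 ± 0.22, adjusted p = 0.356) were not called and overlapped. The count of 7 was the same without day 7 graft 5 and without day 3 graft 1, and 5 to 7 without any other graft, but 2 with all 15 samples in one fit.

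The 10 largest rises by log2 fold change held several matrix genes. They were Col8a2 (8.06 ± 1.72, adjusted p = 0.0211), C1qtnf3 (6.58), Fmod (6.49), Col11a1 (6.11), Gja5 (4.67), Capn6 (4.32), Actg2 (4.04), Cilp (4.00), Brinp3 (3.73) and Angptl1 (3.69), counting only called genes that averaged 10 CPM or more in 1 of the groups, did not overlap between the days and are not predicted genes, pseudogenes or antigen receptor segments. Col8a2, a short-chain collagen (chromosome 4, 126286793 to 126314330), was 0.855, 0.0732, 0, 0 and 0.0772 CPM at day 3 and 31.5, 44.5, 17.2, 30.9 and 5.64 CPM at day 7. With counts this low at day 3 its fold depends on the pseudocount, and it was 4.27 on log2(CPM + 1) and 3.07 on log2(TPM + 1). On log2(TPM + 1) the change was also over 1.5 times smaller for Fmod (3.92), Col11a1 (2.94), Gja5 (2.84), Brinp3 (2.38) and the smooth muscle gene Myh11 (1.68). Fmod, a proteoglycan that sits on collagen fibrils, was 0.22 to 0.43 CPM at day 3 and 43.4, 64.2, 24.1, 46.0 and 10.9 CPM at day 7, and in control tissue it was 1.47 to 14.5 CPM. Col11a1, a cartilage-type fibrillar chain, was 0.146 to 1.57 CPM and 5.60 to 67.9 CPM, and Cilp, a cartilage intermediate layer protein, was 1.39 to 25.4 CPM and 72.4 to 123 CPM. Day 7 graft 5 was the lowest day 7 graft for Col8a2, Fmod and Col11a1, but not for Cilp, where it was 85.0 CPM. For C1qtnf3, a secreted adipokine of the complement-like family, the fold was larger without day 3 graft 1 (7.58). That graft held 32.7 CPM against 0.403 to 4.25 CPM in the other day 3 grafts. Without it the fold was 8.95 for Col8a2 and 4.96 for Capn6, also larger than with all grafts. The call on Col11a1 ended without any single graft but day 7 graft 5, whose omission gave 6.75, and that on Gja5, a gap junction gene of arteries, ended without day 3 graft 3, 4 or 5.

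Small leucine-rich proteoglycans showed 3 of 9 higher and 1 lower (median 0.80). Aspn, which binds collagen, was 35.9 to 188 CPM at day 3 and 97.5 to 571 CPM at day 7, where day 7 graft 5 again was lowest (2.02 ± 0.57, adjusted p = 0.0488), and Bgn rose by 0.91. Prelp, a proteoglycan that anchors basement membranes, fell (256 to 428 CPM and 128 to 186 CPM, -1.11 ± 0.16, adjusted p = 0.00424). Of 16 matricellular and provisional matrix genes 5 rose (median 0.32): Tnc, Postn, Thbs2, the Wnt-induced Ccn4 (16.8 to 37.8 CPM at day 3, 71.5 to 143 CPM at day 7, log2 fold change 2.11 ± 0.25, adjusted p = 0.00169) and the elastin gene Eln (2.01 ± 0.45, adjusted p = 0.0245). Fn1, the fibronectin of the early wound matrix, was not called (0.26). The elastin call ended without day 3 graft 3, 4 or 5 or day 7 graft 2 or 4, and the Aspn call without any graft other than day 3 graft 1 and day 7 graft 5.

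Matrix-cutting enzymes changed in both directions, with 5 of 20 higher and 2 lower (median 0.53). Adam12, a metalloprotease of regenerating muscle and stroma (chromosome 7, 133883199 to 134232146), was 185, 133, 127, 147 and 178 CPM at day 3 and 392, 442, 384, 409 and 320 CPM at day 7 (1.35 ± 0.13, adjusted p = 0.00082). Adamts12 rose by 1.20 ± 0.21 (adjusted p = 0.0104). Its relatives Adamts1 (137 to 226 CPM and 63.8 to 129 CPM, -1.15 ± 0.21, adjusted p = 0.0116) and Adamts5 (165 to 278 CPM and 78.3 to 160 CPM, -1.13 ± 0.20, adjusted p = 0.0103), which cut proteoglycans such as versican and aggrecan, fell. Mmp12, Mmp14 and Timp2 were the other risen members. In the plasminogen system Serpine2, an inhibitor of thrombin and plasminogen activators, rose (16.5 to 32.5 CPM and 42.4 to 136 CPM, 1.95 ± 0.32, adjusted p = 0.00793) and Plaur, the urokinase receptor, fell (-0.72 ± 0.18, adjusted p = 0.0311), out of 9 genes.

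Of 11 cross-linking and 13 basement membrane genes 1 each was called, both higher, where 4.89% of all tested genes rose. They were the prolyl hydroxylase gene P4ha3 (1.26 ± 0.26, adjusted p = 0.0192) and Col18a1, the source of endostatin (1.17 ± 0.27, adjusted p = 0.0272). The list medians were -0.22 and 0.11. Without day 7 graft 5, 1 cross-linking gene rose and 2 fell, and 2 basement membrane genes rose. Of 14 adipose progenitor genes 1 rose and 2 fell, with a median of -0.61 and 3 positive log2 fold changes. Dlk1, a marker of preadipocytes, rose (3.89), but it missed the CPM or overlap limit of the ranked rises. Ly6a (757 to 1225 CPM at day 3, 377 to 615 CPM at day 7, log2 fold change -1.14 ± 0.16, adjusted p = 0.00457) and Ly6c1 (-1.02 ± 0.24, adjusted p = 0.0289) fell. Without day 7 graft 5, 1 gene of the list rose and 6 fell. Without any other single graft 0 to 1 rose and 1 to 2 fell. Ly6a and Ly6c1 have close relatives in the same gene cluster, so reads may be divided between them, and both are also expressed by endothelium. The calls on Plaur and Ly6c1 ended without day 3 graft 4 or 5 or any one of day 7 grafts 1 to 4, for Plaur also without day 3 graft 3 and for Ly6c1 also without day 3 graft 1. The call on Col18a1 ended without day 3 graft 3 or 5 or any one of day 7 grafts 1 to 4, and that on P4ha3 without day 7 graft 3.

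**Figure D4:**
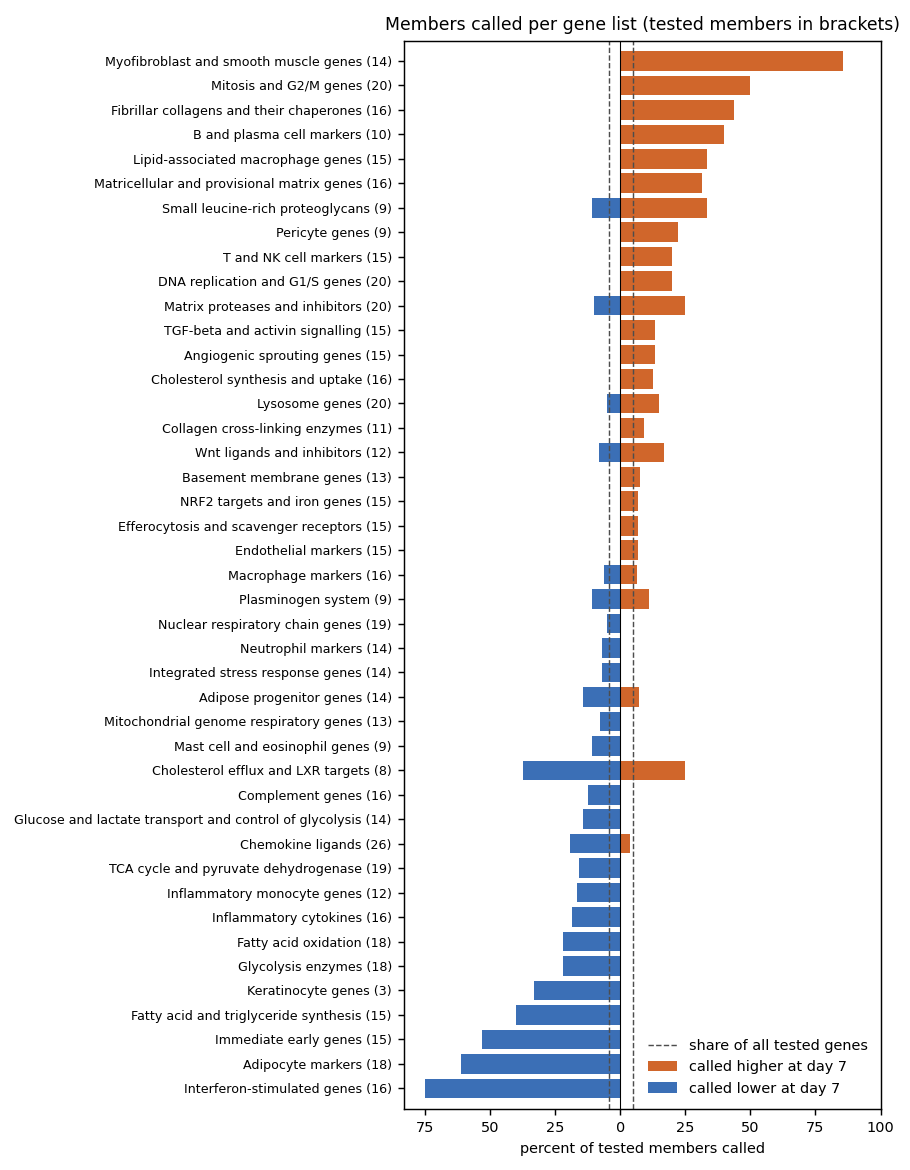
Share of the tested members of each gene list that were called higher (orange, right) or lower (blue, left) at day 7, for the lists with at least 3 tested members and at least 1 call; brackets give the number tested and dashed lines the shares over all tested genes (4.89% higher, 4.22% lower). The myofibroblast and smooth muscle list stands at the top with 12 of 14 genes higher, and the interferon-stimulated list at the bottom with 12 of 16 genes lower.

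Interferon-stimulated genes were lower at day 7 more broadly than any other list by share called, with 12 of 16 lower, none higher and a median log2 fold change of -1.24. Irf7, the transcription factor that amplifies interferon production (chromosome 7, 141262706 to 141266481), was 529, 273, 374, 352 and 352 CPM at day 3 and 150, 95.0, 156, 152 and 69.5 CPM at day 7 (-1.63 ± 0.25, adjusted p = 0.00628). Zbp1, a sensor of nucleic acids, was 220, 128, 155, 162 and 164 CPM at day 3 and 69.9, 46.1, 73.1, 64.6 and 29.1 CPM at day 7 (-1.61 ± 0.25, adjusted p = 0.00628). The groups were separate for both, with day 7 graft 5 lowest. The other lowered members were Isg15, Ifit1, Rsad2, Oasl1, Oasl2, Mx1, Mx2, Usp18, Cmpk2 and Gbp2, at log2 fold changes of -1.39 to -0.80. Ifit2, Ifit3 and Irf1 were among those not called, and for Irf1 the log2 fold change was -0.17. In control tissue Irf7 was 56.8 to 136 CPM. With day 7 graft 5 left out, the list had 13 of 16 lower and a median of -0.96. Without day 3 graft 1 it had 10, and without any other single graft 4 to 11. On TPM 5 genes of the list were called lower, and with library totals 8.

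Of 26 chemokine ligands, which draw leukocytes into tissue, 5 fell, 1 rose and 20 were not called (median -0.85). Ccl7, a monocyte attractant that acts through Ccr2 (chromosome 11, 82045712 to 82047525), was 514, 481, 411, 555 and 431 CPM at day 3 and 222, 127, 143, 166 and 155 CPM at day 7 (-1.57 ± 0.15, adjusted p = 0.00082). In control tissue it was 2.88 to 46.0 CPM. The neutrophil attractant Cxcl1 was 26.0 to 102 CPM at day 3 and 7.14 to 19.3 CPM at day 7 (-2.19 ± 0.48, adjusted p = 0.0237). Ccl2, Ccl12 and Ccl22 were the other lowered ligands (-1.39 to -1.23), and Cx3cl1, a membrane-bound ligand, rose (1.5). In the fit without day 7 graft 5, 11 ligands fell and 2 rose, where 8.37% of all tested genes fell and 10.4% rose. Without any other single graft 3 to 5 ligands fell. The call on Cxcl1 ended without day 3 graft 4 or day 7 graft 2 or 3.

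Genes of the inflammatory cytokine list did not move as one. Of 16, 3 fell (Csf1, Csf2 and Il10, the last of which acts against inflammation) and none rose (median -0.67). Fits without 1 graft gave 1 to 5 lower. Csf1, the growth factor of macrophages, was 165 to 252 CPM at day 3 and 103 to 138 CPM at day 7 (-0.64 ± 0.12, adjusted p = 0.0142). Il1b was 48.5, 23.1, 87.9, 84.5 and 80.2 CPM at day 3 and 351, 43.7, 133, 40.5 and 8.78 CPM at day 7 (0.03 ± 0.83, adjusted p = 0.991). The day 7 values of Il1b spanned the whole day 3 range on both sides, and its log2 fold change was -0.60 without day 7 graft 1 and 0.70 without day 7 graft 5. Of 14 tested neutrophil markers only Lcn2 was called, lower (57.4 to 165 CPM and 7.31 to 67.7 CPM, -2.02 ± 0.57, adjusted p = 0.0488). S100a8, a calcium-binding protein of neutrophils, was 9.34 to 80.4 CPM at day 3 and 21.7 to 199 CPM at day 7 and was not called (0.68 ± 0.71, adjusted p = 0.584). The Lcn2 call ended without any single graft other than day 7 grafts 1 and 5.

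Immediate early genes, which are induced within minutes of a stimulus and include transcription factors, were lower at day 7. Of 15, 8 fell and none rose, and all 15 had a negative log2 fold change (median -0.96). Fos was 149, 338, 139, 227 and 257 CPM at day 3 and 77.7, 115, 55.4, 60.4 and 75.9 CPM at day 7 (-1.49 ± 0.26, adjusted p = 0.0104). Klf4 was 65.7 to 123 CPM at day 3 and 26.1 to 36.6 CPM in day 7 grafts 1 to 4, with 73.5 CPM in day 7 graft 5 (-1.23 ± 0.27, adjusted p = 0.0227). Fos was separate between the days, while Klf4 in day 7 graft 5 lay within the day 3 range. The other 6 were Jun, Junb, Jund, Dusp1, Atf3 and Myc. The count was 11 without day 7 graft 5, 12 without day 3 graft 1 and 2 to 6 without any other graft. The Klf4 call ended without day 3 graft 5 or any one of day 7 grafts 1 to 4.

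General macrophage markers were mostly not called. Of 16 such genes 1 rose and 1 fell (median 0.18). Adgre1, the F4/80 antigen, was 237 to 610 CPM at day 3 and 407 to 545 CPM at day 7 (0.23 ± 0.23, adjusted p = 0.556). Fcgr1, the high-affinity IgG receptor, was 391, 182, 378, 347 and 232 CPM at day 3 and 158, 119, 158, 136 and 132 CPM at day 7 (-1.07 ± 0.20, adjusted p = 0.0131). Lyz2, lysozyme, was 2072 to 5485 CPM at day 3 and 5544 to 7101 CPM at day 7 (0.92 ± 0.23, adjusted p = 0.0333). Both called genes were separate between the days. Of 12 inflammatory monocyte genes 2 fell (median -0.74): Hp, haptoglobin, which adipocytes make as well (1446 to 5403 CPM at day 3, 838 to 1439 CPM at day 7, log2 fold change -1.72 ± 0.30, adjusted p = 0.00998), and Plac8 (-1.05 ± 0.23, adjusted p = 0.0224). Ly6c2 was 7.36 to 45.8 CPM at day 3 and 3.56 to 21.9 CPM at day 7 and was not called (-0.73 ± 0.52, adjusted p = 0.404). The call on Lyz2 ended without day 3 graft 3, 4 or 5 or any one of day 7 grafts 1 to 4, and that on Plac8 without day 3 graft 4 or day 7 graft 2 or 4.

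Genes of lipid-associated macrophages, the cells that surround and digest dying adipocytes, were higher at day 7 for 5 of 15 members, with none lower (median 0.41). Gpnmb, a glycoprotein of lipid-laden macrophages (chromosome 6, 49036546 to 49070929), was 191, 98.3, 130, 84.9 and 134 CPM at day 3 and 580, 939, 528, 683 and 344 CPM at day 7 (2.25 ± 0.27, adjusted p = 0.00212). Atp6v0d2, a proton pump subunit, was 6.41 to 24.5 CPM at day 3 and 17.8 to 91.1 CPM at day 7 (1.75 ± 0.47, adjusted p = 0.0417). Ctsd, Ctsk and Mmp12 were the other risen members, a pair of lysosomal proteases and a secreted elastase. Spp1, osteopontin, was 1115, 1177, 2244, 2719 and 1262 CPM at day 3 and 2870, 2666, 2555, 2711 and 2446 CPM at day 7 (0.74 ± 0.25, adjusted p = 0.0848), and only day 3 graft 4 lay within the day 7 range; without that graft it was called (0.94, adjusted p = 0.0339). Trem2, the lipid receptor that gives these cells their programme, was 94.1 to 160 CPM at day 3 and 123 to 190 CPM at day 7 and was not called (0.38 ± 0.17, adjusted p = 0.168). The count was 7 without day 7 graft 5, where 10.4% of all tested genes rose. It was 4 without day 3 graft 1 and 2 to 4 without any other graft. Of 20 lysosome genes 3 rose and 1 fell, against 0 to 4 and 0 to 2 in fits without 1 graft. Ctsd, cathepsin D, rose (0.66 ± 0.18, adjusted p = 0.0444) and Npc2, which moves cholesterol out of lysosomes, fell (833 to 1130 CPM and 584 to 758 CPM, -0.49 ± 0.11, adjusted p = 0.0245). The Atp6v0d2 call ended without any graft but day 7 graft 5, the Ctsd call without any but day 3 graft 1 and day 7 graft 5, and the Npc2 call without day 3 graft 3 or 4 or any one of day 7 grafts 1 to 4.

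Slc40a1, ferroportin, which exports iron from macrophages that have taken up red cells, was the called member of the 15 NRF2 and iron genes. It was 154, 18.9, 31.7, 62.8 and 28.6 CPM at day 3 and 160, 268, 166, 240 and 237 CPM at day 7, so that day 3 graft 1 nearly reached the day 7 range (2.26 ± 0.49, adjusted p = 0.0224). Hmox1, heme oxygenase, was 735 to 3449 CPM at day 3 and 1381 to 6330 CPM at day 7 (0.29 ± 0.50, adjusted p = 0.762), and its log2 fold change was -0.10 without day 7 graft 5. Of 10 resident macrophage genes and 11 genes of alternative activation none was called. Arg1, arginase, was 622 to 2474 CPM at day 3 and 120 to 669 CPM in day 7 grafts 1 to 4, but 2647 CPM in day 7 graft 5 (-0.91 ± 0.73, adjusted p = 0.46). Mrc1, the mannose receptor, was 760 to 995 CPM in day 7 grafts 1 to 4 and 2095 CPM in graft 5 (762 to 1707 CPM at day 3). F13a1 was 611 to 1272 CPM at day 3, and day 7 grafts 1 to 4 overlapped that range at 461 to 664 CPM (-0.32 ± 0.41, adjusted p = 0.661). Without day 7 graft 5, 6 of the 10 resident macrophage genes were called lower, among them F13a1 (-0.75, adjusted p = 0.0399). In that fit 8.37% of all tested genes fell. For Lyve1 the log2 fold change went from 0.01 ± 0.84 (adjusted p = 0.996) to -0.83 without that graft. The Slc40a1 call ended without day 3 graft 3 or 5 or day 7 graft 2, 3 or 4.

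Lymphocyte transcripts were sparse at both times. Of 15 tested T and NK cell markers 3 rose (Cd4, Trac and Lat; median 0.97), all at means of 0.346 to 0.816 CPM at day 3 and 1.40 to 7.42 CPM at day 7, and Cd4 is also carried by some macrophages. The count was 7 without day 7 graft 5, 3 without day 3 graft 1, 0 to 1 without any other single graft, and 0 with all 15 samples in one fit. Of 10 tested B and plasma cell markers 4 rose (median 1.26), against 2 to 5 in fits without 1 graft and 0 with all 15 samples. Ighm, the IgM heavy chain, was 29.3, 11.3, 17.6, 7.50 and 14.1 CPM at day 3 and 30.8, 59.8, 36.6, 29.6 and 57.3 CPM at day 7 (1.53 ± 0.33, adjusted p = 0.0224), against 217 to 1555 CPM in control tissue. Controls also had higher scores of lymph node stroma genes, 2.14 to 5.46, against 0.51 to 1.15 at day 3 and 0.37 to 1.23 at day 7. Sdc1, a plasma cell marker also made by epithelial and stromal cells, was 53.6 to 100 CPM at day 3 and 121 to 171 CPM at day 7 (0.78 ± 0.17, adjusted p = 0.0228). H2-Aa, an MHC class II chain of antigen-presenting cells, was 104 to 263 CPM at day 3 and 302 to 389 CPM in day 7 grafts 1 to 4, with 93.4 CPM in graft 5 (0.60 ± 0.42, adjusted p = 0.387); without graft 5 it was called (0.98, adjusted p = 0.0466). None of the 15 tested class II and dendritic cell genes was called on all 10 grafts. Cxcl13, the B cell attractant of lymphoid stroma, was 7.22 to 47.2 CPM at day 3, 0.238 to 3.40 CPM in day 7 grafts 1 to 4 and 125 CPM in graft 5, with a log2 fold change of -2.42 ± 1.16 (adjusted p = 0.204) that became -3.69 (adjusted p = 0.0299) without graft 5. Without day 7 graft 4 it was -1.66. The Ighm call ended without day 3 graft 5 or day 7 graft 2, and the Sdc1 call without day 3 graft 5 or day 7 graft 1 or 3.

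Cell cycle genes were higher at day 7 in 4 of the 5 grafts. Of 20 mitosis genes 10 rose, and of 20 DNA replication genes 4 rose; none fell and all 40 log2 fold changes were positive (medians 0.88 and 0.55). Mki67, the proliferation antigen, was 149, 93.3, 137, 74.2 and 151 CPM at day 3 and 292, 292, 288, 258 and 119 CPM at day 7 (1.02 ± 0.28, adjusted p = 0.0454). Top2a, topoisomerase II, was 52.7 to 108 CPM at day 3 and 169 to 211 CPM in day 7 grafts 1 to 4, with 81.1 CPM in graft 5 (1.03 ± 0.27, adjusted p = 0.0414). Day 7 graft 5 lay inside the day 3 range for both. Bub1b, a spindle checkpoint kinase, rose by 1.07 ± 0.29 (adjusted p = 0.0417), Rrm2, a ribonucleotide reductase subunit, by 0.99 ± 0.25 (adjusted p = 0.0338) and Mcm5, part of the replicative helicase, by 0.88 ± 0.24 (adjusted p = 0.0434). Without day 7 graft 5, where 10.4% of all tested genes rose, all 20 mitosis genes and 16 replication genes were called higher. Without any one graft other than it and day 3 graft 1, at most 1 mitosis gene and 2 replication genes were called, and the calls on all of these 5 genes ended. With library totals or on TPM 3 mitosis genes were called higher, and with all 15 samples in one fit none was.

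Glycolysis and hypoxia genes depended on the same graft. Of 18 glycolytic enzymes 4 fell (Pfkl, Aldoa, Tpi1 and Ldha) and none rose (median -0.73). Ldha, which reduces pyruvate to lactate, was 1481, 1644, 2024, 2106 and 1590 CPM at day 3 and 853, 661, 986, 858 and 1603 CPM at day 7 (-0.89 ± 0.22, adjusted p = 0.032). Pfkl, the liver-type phosphofructokinase, was 170 to 321 CPM at day 3 and 63.2 to 133 CPM in day 7 grafts 1 to 4, with 221 CPM in graft 5 (-1.08 ± 0.30, adjusted p = 0.0468), and Tpi1 fell by 0.89 ± 0.23 (adjusted p = 0.0367). In all 3 genes day 7 graft 5 lay within the day 3 range and the other 4 below it. Hk2, the inducible hexokinase, was 90.8 to 144 CPM at day 3 and 56.9, 30.3, 56.7, 53.3 and 134 CPM at day 7, and was not called (-0.93 ± 0.32, adjusted p = 0.0936).

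Of 14 genes of glucose and lactate transport and control 2 fell (median -0.58). They were Bsg, the chaperone of lactate transporters (-0.87 ± 0.23, limma adjusted p = 0.0388), and Pdk1, a kinase that inhibits pyruvate dehydrogenase (-0.84 ± 0.23, adjusted p = 0.0448). Slc2a1, the glucose transporter GLUT1, was 133, 183, 262, 346 and 158 CPM at day 3 and 91.6, 37.8, 101.3, 97.9 and 280 CPM at day 7 (-1.03 ± 0.46, adjusted p = 0.173). The lactate exporter Slc16a3 was 180 to 324 CPM at day 3 and 105, 46.1, 142, 110 and 233 CPM at day 7 (-1.02 ± 0.36, adjusted p = 0.098). Again only graft 5 of day 7 reached the day 3 values. None of the 20 hypoxia response genes was called on all 10 grafts (median -0.61; 2 had a positive log2 fold change). Vegfa, the angiogenic growth factor, was 93.0 to 297 CPM at day 3 and 47.5 to 107 CPM in day 7 grafts 1 to 4, with 228 CPM in graft 5 (-1.03 ± 0.41, adjusted p = 0.137). Lox, a collagen cross-linker induced by hypoxia, was 777 to 1703 CPM and 692 to 1817 CPM (-0.22 ± 0.27, adjusted p = 0.656), and Hif1a, the oxygen-regulated factor, was 167 to 348 CPM and 239 to 521 CPM (0.46 ± 0.23, adjusted p = 0.232).

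Without day 7 graft 5, 13 of 18 glycolytic enzymes fell and 1 rose, 6 of 14 transport and control genes fell and 11 of 20 hypoxia genes fell. In that fit, where 8.37% of all genes fell, Slc2a1 (-1.41, adjusted p = 0.0187), Hk2 (-1.24, adjusted p = 0.00423), Slc16a3 (-1.29, adjusted p = 0.0164) and Vegfa (-1.36, adjusted p = 0.0186) were called. Without any one graft other than it and day 3 graft 1, 0 to 2 glycolytic enzymes and no gene of the other 2 lists were called; the calls on Pfkl, Tpi1, Bsg and Pdk1 ended without each of these 8 grafts, and that on Ldha without 7 of them, day 3 graft 2 being the exception. Day 7 graft 5 also had the highest mesothelial and resident macrophage scores of the 10 grafts (3.28 and 8.30), and the part of those cells in its glycolysis and hypoxia values was not tested. Of 7 pentose phosphate genes none was called.

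**Figure D5:**
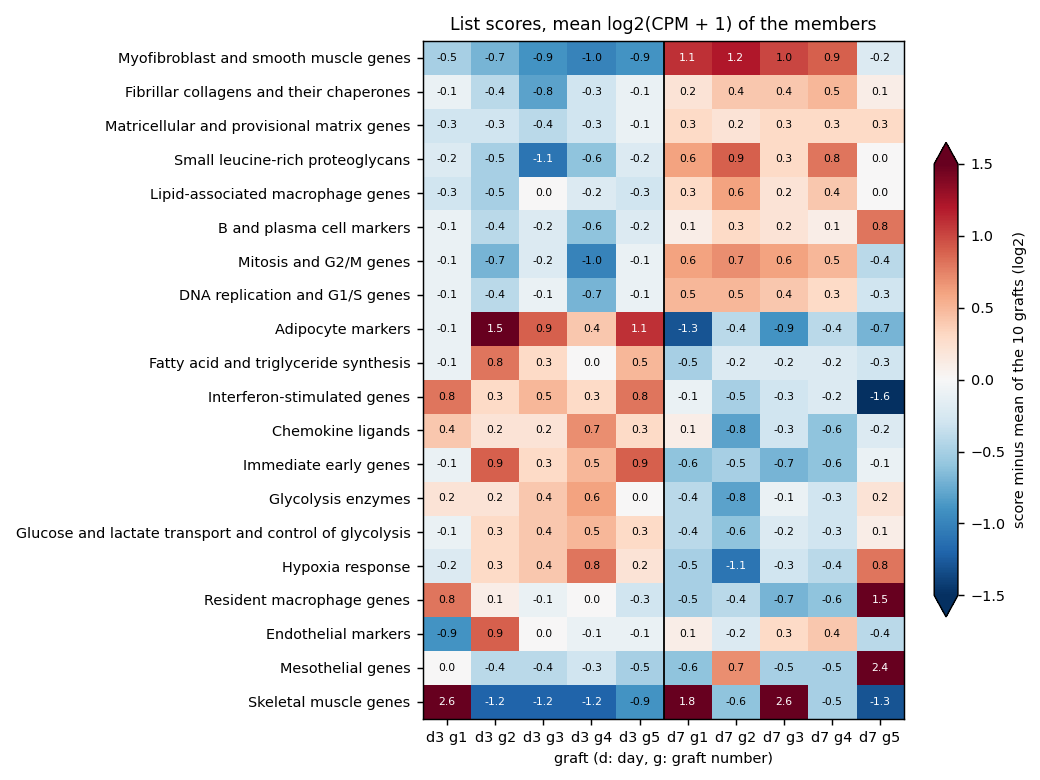
Score of 20 gene lists in each graft, as the mean log2(CPM + 1) of the members minus the mean of the 10 grafts; red is above and blue below that mean. Day 7 graft 5 shares low adipocyte and interferon scores with the other day 7 grafts, while its hypoxia (8.03), resident macrophage (8.30) and mesothelial (3.28) scores before centring equal or exceed the highest day 3 scores and its mitosis score (4.75) lies within the day 3 range of 4.19 to 5.07.

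Endothelial genes showed little change in number. Of 15 endothelial markers 1 rose and none fell (median 0.14), where 4.89% of all tested genes rose. Pecam1, the junction protein CD31, was 169, 562, 332, 309 and 277 CPM at day 3 and 376, 258, 444, 435 and 252 CPM at day 7 (0.17 ± 0.29, adjusted p = 0.755), and the groups overlapped. The call was on Ptprb, a phosphatase of vascular endothelium (24.4 to 61.4 CPM and 56.9 to 111 CPM, 1.28 ± 0.26, adjusted p = 0.0176). Of 15 sprouting genes 2 rose (median -0.23), Vegfc, the lymphangiogenic ligand (1.17), and Aplnr, the apelin receptor of growing veins and tips (8.16 to 17.5 CPM at day 3, 16.7 to 76.3 CPM at day 7, log2 fold change 2.09 ± 0.44, adjusted p = 0.0207). The Aplnr call ended without day 3 graft 3 or day 7 graft 3. In the fit without day 7 graft 5, 2 sprouting genes rose and 2 fell. With day 3 graft 1 left out as well, 2 rose and 4 fell. None of 8 lymphatic endothelial and 10 Schwann cell genes was called.

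By the same limits, no overlap included, the 10 largest falls were Cfd (-3.20), Cdsn (-3.18), Orm1 (-2.75), Tppp (-2.59), Sncg (-2.44), Amy1 (-2.41), Ces1f (-2.41), Clic5 (-2.39), Bmp3 (-2.36) and Tmem45b (-2.35). Sncg, gamma-synuclein, which is abundant in adipocytes and peripheral neurons, was 57.8 to 206 CPM at day 3 and 16.02 to 34.0 CPM at day 7 (-2.44 ± 0.35, adjusted p = 0.00424). Orm1, an acute phase glycoprotein with near-identical copies, was 14.2 to 55.6 CPM and 3.63 to 6.43 CPM (-2.75 ± 0.45, adjusted p = 0.00802), against 154 to 526 CPM in control tissue. Tppp, a tubulin-binding protein, was 15.1 to 36.6 CPM and 3.00 to 4.78 CPM. Cdsn, a desmosome protein of cornified epithelium, was 7.78 to 59.6 CPM and 1.78 to 5.05 CPM (11.3 to 77.5 CPM in control tissue), while the defining keratins Krt5, Krt14 and Krt1 were too low to be tested. Amy1 and Ces1f also belong to families of close copies between which reads may be split. Calls that ended were those on Cdsn and Ces1f (without any one of day 7 grafts 1 to 4), Clic5 (without day 7 graft 3) and Bmp3 (without day 7 graft 1). On log2(TPM + 1) the change was -1.26 for Clic5 and -1.16 for Bmp3.

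Complement genes showed 2 of 16 lower (median -0.24), where 4.22% of all tested genes fell. Cfb, factor B of the alternative pathway, was 576 to 1053 CPM at day 3 and 286 to 502 CPM at day 7 (-0.84 ± 0.20, adjusted p = 0.0282), and Clu, the inhibitor clusterin, was 26.9 to 66.5 CPM and 14.7 to 35.8 CPM (-1.08 ± 0.29, adjusted p = 0.0435). The call on Cfb ended without day 3 graft 4 or day 7 graft 1, 3 or 4, and that on Clu without any graft other than day 3 graft 1 and day 7 graft 5. Of 14 integrated stress response genes 1 fell (Atf3), of 15 efferocytosis and scavenger receptor genes 1 rose (Tyro3), and of 9 mast cell and eosinophil genes 1 fell (Ccr3). No call was made among 18 cytosolic ribosomal proteins, 7 red cell, 8 skeletal muscle, 4 lymph node stroma or 3 mesothelial genes tested or for the 1 tested epididymis and mammary gene, and 1 of 3 keratinocyte genes (Sbsn) fell. For skeletal muscle the log2 fold change moved with single grafts. For Acta1 it was 1.29 ± 1.89 (adjusted p = 0.709), 2.64 without day 3 graft 1, 2.58 without day 7 graft 5, 0.66 without day 7 graft 1 and 0.23 without day 7 graft 3. For Mylpf it was 1.56 ± 1.68 (adjusted p = 0.594), 2.83, 2.43, 0.90 and 0.60 in the same order. For Msln it was 2.36 ± 1.66 (adjusted p = 0.397), 1.46 without day 3 graft 4 and 3.00 without day 7 graft 4, and it was too low to be tested in 5 of the 10 fits without 1 graft.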

How the data were processed

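Total RNA of 15 adipose samples went into stranded paired-end mRNA libraries, as the labels' protocols describe. Tools listed in the submitters' processing notes, with no role stated, are RSEM 1.3.1, STAR 2.7.1a and cutadapt 2.8, and the build is mm10; no source used here gives the annotation release. The matrix covers 55471 genes. Its estimated counts, as deposited, were found to be whole numbers that are not scaled, and they are the basis of the tests. The deposited RPKM columns, which the authors scaled by library and by length, were not used. The deposited TPM columns, scaled by the authors for length and to one common total, served in 1 alternative. All 45 value columns were mapped to samples and 0 were not. Where a list gene had 1 of the 118 repeated symbols, its most counted entry was taken. Replicate libraries differed beyond sampling noise (lowest chi-square per gene 19.41).

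Genes with at least 10 counts in 5 of the 10 grafts were fitted with limma-voom (limma 3.58.1, R 4.3.3), with TMM scaling and no covariates, after the script was tested on simulated data. Genes were called at a Benjamini-Hochberg adjusted p under 0.05 over all tested genes. CPM is the estimated count divided by the library total (all genes) times its TMM factor, in the usual unit (trims of 30% and 5%). A list score is the mean log2(CPM + 1) of all its members.

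The comparison and the 56 gene lists were chosen with earlier results of these data known. Genes given with statistics are the 10 largest called changes in each direction without overlap and with a mean of at least 10 CPM, up to 2 called examples per list (3 against the majority) or 2 abundant members of a list without calls, and a fixed panel. Other list members that are named (Tgfb1, Wnt11, Dlk1, Fn1 and those listed beside a count) were chosen after their values were seen. Alternatives covered scaling, filters, pseudocounts, TPM, all 15 samples, the replicate block, quality weights and leaving out grafts. Some list members are not reported here by name.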

Additional observations from a re-analysis of the deposited data

Results flagged for a closer look

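In a group of 5 grafts, the highest or lowest value was taken up here where its gap to the nearest other graft exceeded 0.71 of the group's whole range. This was the case for 34 values in 230 groups of 5 (115 genes, 2 days). The limit marks about 1 in 20 groups of independent, normally distributed values. These groups share the same libraries and many of the genes were chosen for their change, so the count was not tested against chance. Of the 34 values, day 7 graft 5 held 19, day 3 graft 1 held 8, day 3 graft 2 and day 7 graft 2 held 3 each, and day 3 graft 4 held 1.

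In day 7 graft 5, several genes found in macrophages stood high, while others did not: Gpnmb (344 CPM) and Atp6v0d2 (17.8 CPM) were lowest of day 7 there, and Adgre1 (453 CPM) lay within the range of the other 4. Lyve1 was 406.5 CPM against 15.99 to 27.3 CPM in the other 4 day 7 grafts, Mrc1 was 2095 against 760 to 995, F13a1 was 2322 against 461 to 664, Arg1 was 2647 against 120 to 669, Hmox1 was 6330 against 1381 to 2136 and Apoe was 3144 against 1184 to 1686 CPM. Its B cell attractant gene Cxcl13 was 125 CPM against 0.238 to 3.40 CPM, and its mesothelial gene Msln was 15.6 against 0.0953 to 2.12 CPM. The glucose uptake genes Slc2a1 (279.9 CPM against 37.8 to 101.3) and Hk2 (133.8 against 30.3 to 56.9), the lactate transporter chaperone Bsg (598 against 270 to 336) and the cross-linker Lox (1817 against 692 to 963) were also highest there. Klf4 was 73.5 CPM against 26.1 to 36.6, Adamts1 was 129 against 63.8 to 70.8, Ly6c1 was 252 against 112 to 142 and Clic5 was 5.03 against 1.25 to 2.19 CPM. The same graft was lowest for smooth muscle actin and dividing cells, with Acta2 at 171.7 CPM against 517 to 655, Mki67 at 119 against 258 to 292 and Bub1b at 22.4 against 49.9 to 56.6 CPM.

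In day 3 graft 1, skeletal muscle genes and a mixed set of others stood high. Acta1 was 103.7 CPM against 0.696 to 1.51 CPM in the other 4 day 3 grafts and Mylpf was 67.1 against 0.601 to 1.62. C1qtnf3 was 32.7 CPM against 0.403 to 4.25, Cilp was 25.4 against 1.39 to 7.91, Capn6 was 9.002 against 0.476 to 1.74, Gja5 was 2.93 against 0.220 to 0.696 and Col8a2 was 0.855 against 0 to 0.0772 CPM. Msln was 6.07 CPM there against 0 to 0.3295.

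The remaining values were spread over 3 libraries. Day 3 graft 2 was highest for Dgat2 (76.9 CPM against 24.5 to 38.6), Csf1 (252 against 165 to 189) and Myh11 (5.93 against 1.08 to 2.41). Day 3 graft 4 was highest for Npc2 (1130 CPM against 833 to 916). Day 7 graft 2 was highest for Cilp (123 CPM against 72.4 to 85.1) and lowest for Plaur (33.5 against 51.2 to 56.3) and Cfb (286 against 467 to 502).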

How the results depend on the processing

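The reported counts were 749 genes higher and 646 lower, of which 396 and 257 changed at least 2-fold. Fits without 1 graft gave 256 to 1583 higher, 218 to 1269 lower, 194 to 712 at least 2-fold higher and 105 to 442 at least 2-fold lower; the lowest came without day 7 graft 3 and the highest without day 7 graft 5. Leaving out the pair day 3 graft 1 and day 7 graft 5 gave 1532, 1481, 732 and 535, and sample quality weights (lowest for day 7 graft 5, 0.3269) gave 1884, 1618, 750 and 497. One fit of all 15 samples gave 273 lower and 160 at least 2-fold lower, and log2(TPM + 1) gave 341 lower, 248 at least 2-fold higher and 125 at least 2-fold lower. The cause was not tested for any of these. The share of calls that were higher, 53.7% with the reported settings, was 64.2% with upper-quartile scaling, 65.7% with all 15 samples and 69.9% on TPM, whose median over all genes was 0.09. The other settings stayed within 1.5 times of each count. The labels do not say that same-numbered grafts are paired. Their deviations correlated at -0.195 to 0.325 and 2 of 5 matched their own number best, and a shared origin was not tested. With the replicate block, 547 genes rose and 547 fell, and 14 of the 89 named calls ended; 7 interferon-stimulated genes fell and no mitosis gene rose.

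Of the 89 called genes given with statistics, calls that ended numbered 30 with all 15 samples, 10 on TPM, 10 with library totals, 7 with no filter, 3 with upper-quartile scaling, 2 with either limma-trend pseudocount, and 0 with median-of-ratios scaling, the 1 CPM filter, quality weights or the pair left out, where Col8a2 was not fitted. Sign changes occurred in genes that were not called. For Hmox1, quality weights gave 0.00 and fits without 1 graft -0.10 to 0.53. For Il1b, fits without 1 graft gave -0.60 to 0.70, and for Pecam1 -0.04 to 0.38. For Lyve1, fits without 1 graft gave -0.83 to 0.40, no filter -0.01, the replicate block -0.08, quality weights -0.47 and the pair left out -0.46. Msln could not be fitted in 5 of the fits without 1 graft, with the 1 CPM filter or without the pair. Low counts limit the mesothelial and keratinocyte lists, of which 3 of 9 genes each could be tested.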
